A study of Homo sapiens with 6 samples.

Results

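Survivin, encoded by BIRC5, is a subunit of the chromosomal passenger complex, together with Aurora B kinase (AURKB), the inner centromere protein (INCENP) and borealin (CDCA8). The members were the rows of these 4 genes by symbol, out of 26255 rows, and all 4 were found and passed the filter on low values. They were measured by mRNA sequencing in HT29 cells, an established human colorectal adenocarcinoma line, after 24 h with YM155 or with DMSO, with 3 libraries in each group. YM155 is an imidazolium compound known for lowering survivin expression, and DMSO is its solvent control; the titles of the treated libraries spell the compound YM115, while their treatment field gives YM155. The dose is not given in the labels used here, and no untreated cells were included. The labels do not say whether the triplicates were separate cultures, so each p-value reflects only how far these libraries scatter, and that scatter may be technical.

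The complex moves during cell division. Survivin, borealin and the amino terminus of INCENP form a bundle that docks on the inner centromere, where survivin reads a phosphorylated histone H3 tail, while the carboxy terminus of INCENP binds and activates Aurora B. From there the kinase releases wrongly attached microtubules, and in anaphase the complex passes to the central spindle, where it is needed for cytokinesis. Survivin is also classed among the inhibitor of apoptosis proteins because of its BIR domain. Transcripts of the subunits are made mainly in G2 and mitosis, under the MuvB family of complexes, the forkhead factor FOXM1 and the CCAAT factor NF-Y.

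The YM155 libraries differed from the DMSO libraries across most of the transcriptome. Of 12035 genes tested with limma on log2(FPKM + 1), 84.7% passed an adjusted p of 0.05 (Benjamini-Hochberg), 43.6% higher and 41% lower with YM155, and for 85.9% the 3 libraries of each group did not overlap, with 41.5% below and 44.4% above in all YM155 libraries. A call by itself therefore sets no gene apart here. FPKM, fragments per kilobase of transcript and per 1 M reads, summed to 678699 to 696067 per YM155 library and 538478 to 563296 per DMSO library, and small changes depend on how that gap is treated. The steps between low FPKM values put the depth at about 15.4 to 17.9 M effective reads with YM155 and 24.6 to 27.4 M with DMSO. Of 8 colon epithelial markers 7 passed the filter, among them EPCAM at 355 ± 24.7 FPKM with YM155 and 276 ± 23.1 FPKM with DMSO (SD, n = 3 each), while CDX1 was near 0 in both groups. Of those 7, 5 were called higher with YM155, led by KRT20 at 6.71-fold, and CDX2 and VIL1 fell 3.81-fold and 1.73-fold. CDX2 was low, at 0.839 FPKM with YM155 and 3.20 FPKM with DMSO, and passed the filter only through the DMSO libraries. With upper-quartile, common-sum and quantile scaling 4 of the 7 were higher and 2 lower. Summed levels of 4 leukocyte, 4 fibroblast and 3 endothelial markers stayed at or below 0.706, 0.123 and 0.239 FPKM with YM155 and 1.13, 0.343 and 0.144 FPKM with DMSO, and the fibroblast marker DCN was at 0 in all libraries.

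The subunits did not move together. BIRC5 fell 3.42-fold with YM155, AURKB fell 2.19-fold and INCENP fell 1.32-fold, whereas CDCA8 was 1.31-fold higher on the deposited scale.

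BIRC5 was at 7.13, 6.07 and 5.89 FPKM in the YM155 libraries and at 21.6, 20.98 and 22.8 FPKM in the DMSO libraries. All YM155 libraries lay far below all DMSO libraries, and the first YM155 library was the highest of its group. The log2 fold change on the log2(FPKM + 1) scale was -1.63 (SE 0.07, adjusted p = 6.8e-08 by limma), and 2.19% of the tested genes had a lower one. In level BIRC5 stood above 73.0% of tested genes in DMSO cells but above only 37.0% of them in YM155 cells.

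AURKB, the kinase subunit, was at 7.89, 7.42 and 7.65 FPKM with YM155 and at 16.7, 16.9 and 16.6 FPKM with DMSO. The libraries of each group were tight, with a coefficient of variation of 3.08% with YM155 and 1.07% with DMSO, and the groups did not overlap. Its log2 fold change was -1.04 (SE 0.05, adjusted p = 1.3e-07 by limma), with 10.9% of tested genes lower.

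INCENP, the scaffold that links the kinase to the other subunits, was at 8.81, 8.27 and 7.68 FPKM with YM155 and at 11.1, 10.7 and 10.8 FPKM with DMSO. The groups again did not overlap, but the gap was small beside that of BIRC5 or AURKB. Its log2 fold change was -0.36 (SE 0.06, adjusted p = 0.000503 by limma), in the middle of the transcriptome, with 33.7% of genes lower.

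CDCA8, which encodes borealin, was at 16.998, 17.3 and 18.9 FPKM with YM155 and at 13.2, 13.6 and 13.7 FPKM with DMSO. Every YM155 library was above every DMSO library. On the deposited scale the log2 fold change was 0.37 (SE 0.06, adjusted p = 0.000209 by limma), and 35.7% of genes had a higher one. The call did not hold when the libraries were brought to a common sum, upper quartile or distribution: the log2 fold change was then 0.06, 0.04 and 0.13 (adjusted p = 0.36, 0.53 and 0.054). With the upper-quartile and common-sum scalings the median over all genes shifted by -0.32 and -0.29 (log2), and relative to that median CDCA8 stood at 0.34 as deposited and at 0.33, 0.33 and 0.20 under the upper-quartile, common-sum and quantile scalings. The falls of BIRC5, AURKB and INCENP were called under each of the scalings tried, but their size moved: with upper-quartile and common-sum scaling INCENP was at -0.68 and -0.65, AURKB at -1.36 and -1.33 and BIRC5 at -1.95 and -1.93.

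**Figure D1:**
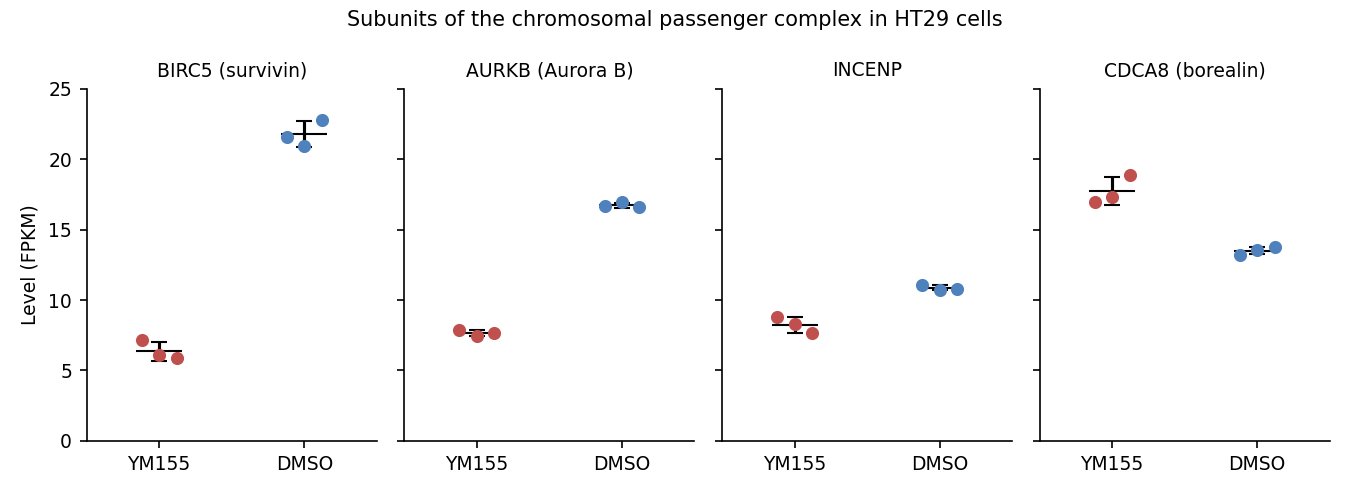
Level of each subunit in FPKM in the 3 YM155 libraries (red) and the 3 DMSO libraries (blue), with the mean and SD in black. BIRC5 and AURKB are far lower with YM155 and INCENP slightly lower, while on this deposited scale CDCA8 is the one subunit whose YM155 libraries lie above its DMSO libraries.

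**Figure D2:**
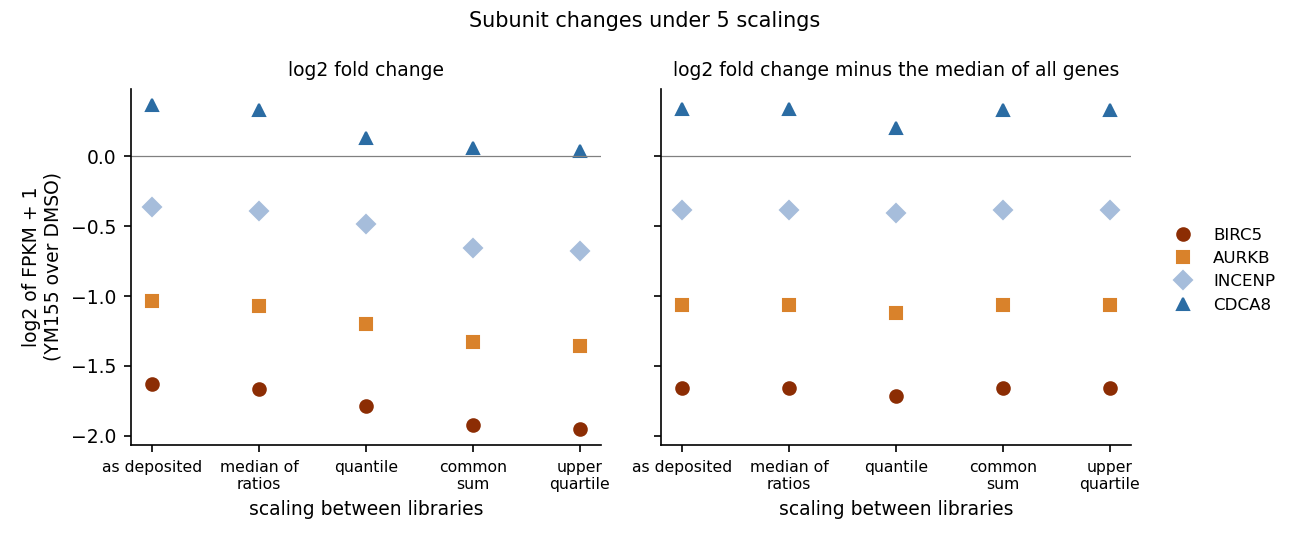
Log2 fold change of the 4 subunits (YM155 over DMSO) under 5 scalings between libraries, as such on the left and minus the median of all tested genes on the right. The order of the subunits is the same in all 5, and CDCA8 lies between 0.04 and 0.37 on the left and between 0.20 and 0.34 on the right.

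Converted to approximate reads, with RefSeq-linked transcript lengths and an assumed fragment length of 200 bases, BIRC5 rested on about 220 to 270 reads per YM155 library and 1360 to 1420 per DMSO library. AURKB, with the fewest, rested on about 120 to 130 and 400 to 450 reads. Counting error alone was then 6.12% to 6.68% for BIRC5 with YM155, against an observed coefficient of variation of 10.5%, and 8.83% to 9.29% for AURKB, against 3.08%. With DMSO the observed coefficients of variation of AURKB, INCENP and CDCA8 (1.07%, 1.65% and 1.92%) were also below the estimated counting errors, which start at 4.72%, 3.03% and 3.44%. The read estimates and the small standard errors are therefore uncertain. INCENP and CDCA8 had about 440 to 700 reads per YM155 library and 770 to 1090 per DMSO library. The figures cover counting error only. No other RefSeq gene overlapped any of the 4 genes.

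The comparison of BIRC5 with its partners asked whether survivin transcript fell further than the rest of its complex. It did, against each of the partners. The ratio of BIRC5 to AURKB was 0.904, 0.818 and 0.769 in the YM155 libraries and 1.29, 1.24 and 1.37 in the DMSO libraries. Survivin transcript thus outnumbered Aurora B transcript per kilobase in every DMSO library and in no YM155 library. The difference between the log2 fold changes, BIRC5 minus AURKB, was -0.60 (95% interval -0.80 to -0.40, from the spread of that pair alone on 4 residual degrees of freedom). Against INCENP the BIRC5 ratio was 0.809, 0.734 and 0.767 with YM155 and 1.95, 1.96 and 2.11 with DMSO, a difference of -1.27 (interval -1.41 to -1.13). Against CDCA8 it was 0.419, 0.351 and 0.312 with YM155 and 1.63, 1.55 and 1.66 with DMSO, a difference of -2.00 (interval -2.32 to -1.68). Without the pseudocount, the mean ratio of survivin to borealin FPKM was 0.361 with YM155 and 1.61 with DMSO, which is 4.47-fold lower with YM155.

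The partners also parted from each other. The ratio of AURKB to INCENP averaged 0.930 ± 0.0582 with YM155 and 1.54 ± 0.0367 with DMSO (SD, n = 3 each), and the ratio of AURKB to CDCA8 averaged 0.433 ± 0.0293 with YM155 and 1.24 ± 0.0281 with DMSO. The ratio of INCENP to CDCA8 averaged 0.468 ± 0.0562 with YM155 and 0.805 ± 0.0277 with DMSO. The 3 differences of log2 fold changes were -0.68 (interval from the pair alone -0.81 to -0.54), -1.40 (-1.56 to -1.25) and -0.73 (-0.998 to -0.457). In all 6 pairs of subunits the ratios of the YM155 libraries did not overlap those of the DMSO libraries, and a factor common to a library cancels in such a ratio. That the YM155 ratios were the lower ones follows from the order, as the gene with the lower log2 fold change stands first in each pair. The 6 ratios share genes and are not independent. The groups also did not overlap for 85.9% of single tested genes, and no such share is given for ratios of other genes. By limma on the per-library differences, fitted over all tested genes, the adjusted p was 3.0e-06, 2.0e-15 and 5.0e-24 for BIRC5 against AURKB, INCENP and CDCA8, and 4.2e-06, 1.1e-08 and 2.1e-06 for the other pairs in the order above. Each of these was below the adjusted p of the pair alone (4.2e-05 to 0.0017 by linear model on 4 residual degrees of freedom). With AURKB first, the limma standard errors (0.065 and 0.063) were above those of the pair alone (0.049 and 0.055). The limma p-values can be too small, because the spread of the first gene enters every gene's difference and can be counted as if measured many times. The intervals avoid that, but may be too narrow where a subunit scattered less than its estimated counting error. From the spreads of the 2 genes combined, the interval was wider for BIRC5 minus INCENP (-1.49 to -1.05) and AURKB minus INCENP (-0.86 to -0.49). It was narrower for BIRC5 minus CDCA8 (-2.21 to -1.79) and INCENP minus CDCA8 (-0.92 to -0.54). The exact two-sided permutation test of each log2 ratio gave p = 0.1, the smallest that 3 libraries against 3 allow. By the same limma fit, whose counts of calls can be affected in the same way, the BIRC5 change differed from that of 96.4% of all other tested genes and was lower than that of 95.4%. Its difference from the partners was not shown to be particular to them. For AURKB these shares were 89.9% and 83.1%, for INCENP 82.6% and 57.4% and for CDCA8 84.4% and 28.5%.

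The order of the transcripts within the complex differed between the groups, with BIRC5 lowest in YM155 cells and highest in DMSO cells, while CDCA8 stood above INCENP in both. In YM155 cells it was CDCA8 (17.7 FPKM on average), INCENP (8.25), AURKB (7.65) and BIRC5 (6.36). There INCENP and AURKB overlapped, while CDCA8 lay above and BIRC5 below all of their libraries. In DMSO cells it was BIRC5 (21.8), AURKB (16.7), CDCA8 (13.5) and INCENP (10.9), with no overlap between neighbours in that order. Of the summed FPKM of the 4 subunits, BIRC5 made up 17.5%, 15.5% and 14.7% with YM155 and 34.5%, 33.7% and 35.7% with DMSO. CDCA8 made up 44.3 ± 2.71% with YM155 and 21.5 ± 0.322% with DMSO. AURKB made up 19.1 ± 0.170% with YM155 and 26.6 ± 0.647% with DMSO, and INCENP 20.6 ± 1.30% with YM155 and 17.3 ± 0.401% with DMSO (SD, n = 3 each). For each of the 4 shares, and for their sum (39.99 ± 0.886 FPKM with YM155 and 62.9 ± 0.936 FPKM with DMSO), the groups did not overlap (exact two-sided permutation p = 0.1, the smallest possible). FPKM depends on the transcript models the authors used, so the order between genes is less certain than the change of each.

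**Figure D3:**
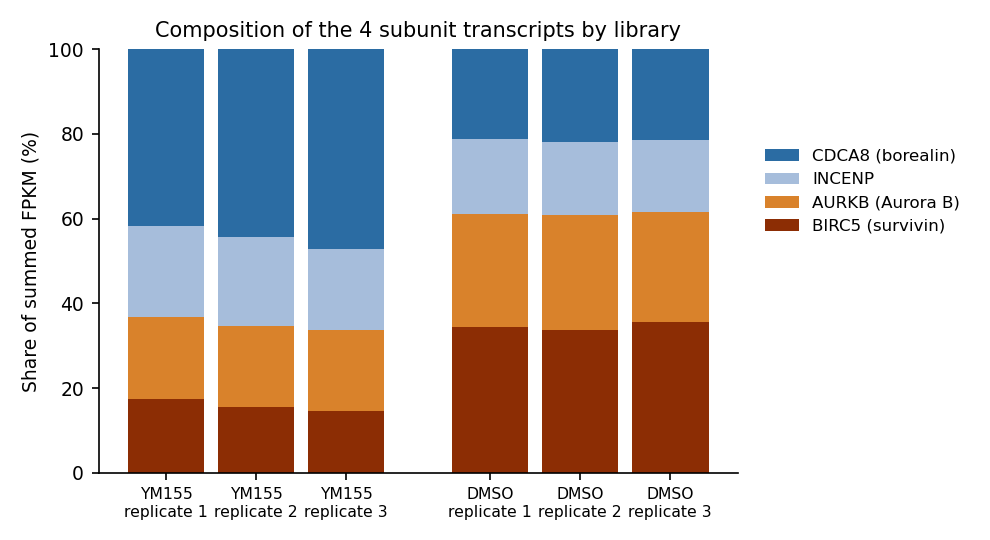
Share of each subunit in the summed FPKM of the 4 subunits, in percent, for each YM155 library (left) and each DMSO library (right). BIRC5 takes 14.7% to 17.5% of the sum with YM155 and 33.7% to 35.7% with DMSO, and CDCA8 takes up the largest share with YM155.

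Mitotic genes fell as a group with YM155, so the subunits were set against 40 of them, a list that holds none of the 4. The list was chosen with results of these data known. Its fall is therefore not independent support, and the p-values against it below carry the same limit. Of the 40 genes, 38 fell, 1 rose (CDC20, the activator of the anaphase-promoting complex) and 1 did not pass (PRC1), beside 41% lower of all tested genes. The median log2 fold change was -1.15, beside 0.02 for all tested genes. The call of CDC20 was lost with upper-quartile, common-sum and quantile scaling, and its sign turned with the last. In bulk RNA, fewer cells in G2 and mitosis cannot be told apart from less of these transcripts per cell. Among the list only 5 genes had a lower log2 fold change than BIRC5, the lowest being KIF20A (-2.47), TOP2A and CENPF (both -1.77). For AURKB 24 of the 40 were lower, for INCENP 37 and for CDCA8 39.

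The median log2 level of this list was then subtracted from every gene, library by library, and the fit repeated. This baseline is not the median of the genes' changes given above: it moved by -1.04 between the groups, against -1.15. Relative to it BIRC5 fell by a further 0.59 (log2 difference -0.59, adjusted p = 0.000588 by limma; interval from its own spread -0.96 to -0.22), and relative to the median of the changes it stood at -0.48. The ratio of BIRC5 to the list median, on the FPKM + 1 scale, was 1.05, 0.820 and 0.793 with YM155 and 1.27, 1.35 and 1.37 with DMSO. The first YM155 library was the nearest to the DMSO libraries, and without it the difference was -0.72. AURKB differed from the median level by 0.00, with an interval of -0.24 to 0.24 (adjusted p = 0.97 by limma), and from the median of the changes by 0.11. INCENP was 0.68 above the median level (interval 0.39 to 0.97) and CDCA8 1.41 (interval 1.24 to 1.58), with adjusted p = 9.0e-05 and 6.1e-08 by limma. For 87% of tested genes the change differed from the list median, lower for 5.54% and higher for 81.5%, so BIRC5 stands with the smaller set and INCENP and CDCA8 with the larger.

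**Figure D4:**
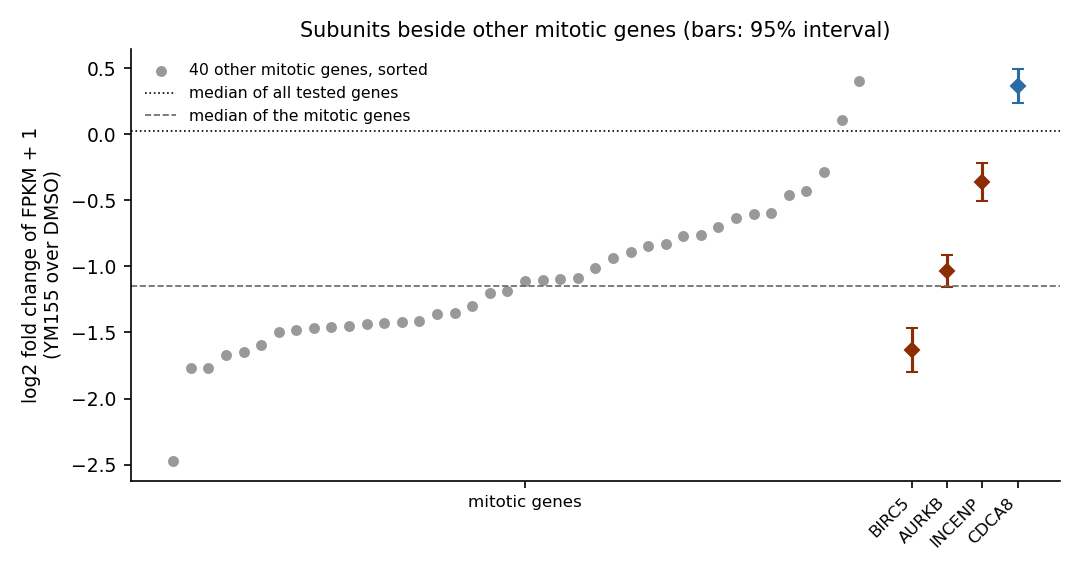
Log2 fold change of FPKM + 1 (YM155 over DMSO) of 40 other mitotic genes in order (grey) and of the 4 subunits with 95% intervals (diamonds). BIRC5 lies near the lower end of the mitotic genes, AURKB near their median of -1.15, INCENP near their upper end and CDCA8 beside CDC20, the one mitotic gene called higher as deposited (not with upper-quartile, common-sum or quantile scaling).

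Several genes of the lists by role that follow are also among the 40 mitotic genes, 4 of 8 at the centromere, 7 of 8 at the central spindle, 3 of 5 Aurora genes and 2 of 6 kinetochore genes, so these counts repeat that fall in part. Each count is to be read beside 41% lower and 43.6% higher of all tested genes as deposited. With upper-quartile scaling 6672 of 12088 tested genes were lower and 3741 higher. The genes that place the complex at the inner centromere gave mixed results, with 5 of 8 lower, 2 higher and a median log2 fold change of -0.64. CCNB1 and CDK1, the mitotic cyclin and its kinase, fell 2.92-fold and 1.96-fold, and BUB1, the kinase that marks histone H2A for the shugoshins, fell 1.91-fold. The shugoshin gene SGOL2 (SGO2), which protects centromeres, was at 1.23 ± 0.290 FPKM with YM155 and 3.18 ± 0.434 FPKM with DMSO, a 2.60-fold fall. The other shugoshin gene, SGOL1 (SGO1), did not pass, at 3.16 ± 0.355 FPKM with YM155 and 3.15 ± 0.0851 FPKM with DMSO, and was called lower with upper-quartile and common-sum scaling but higher with quantile scaling. TTK, the spindle checkpoint kinase Mps1, fell 1.42-fold. GSG2 (HASPIN), which lays the histone H3 mark that survivin reads, was 1.56-fold higher, at 3.37 ± 0.435 FPKM with YM155 and 2.16 ± 0.291 FPKM with DMSO (log2 fold change 0.47, adjusted p = 0.00206 by limma). That call ended with upper-quartile and common-sum scaling, and GSG2 lies inside ITGAE in RefSeq, so its reads may be shared. RCC2, a protein required for centromeric localization of the complex, was 1.10-fold higher as deposited and lower with upper-quartile, common-sum and quantile scaling. With upper-quartile and common-sum scaling 0 of the 8 were called higher and 7 lower.

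Genes of the central spindle, where the complex acts in anaphase, fell in 7 of 8 cases, beside 41% of all tested genes. Their median log2 fold change was -0.86. KIF20A, the kinesin MKLP2 that carries the complex from chromosomes to the spindle midzone, was at 1.19 ± 0.212 FPKM with YM155 and 11.1 ± 0.820 FPKM with DMSO, a 9.36-fold fall and the largest among these partners. KIF23 and RACGAP1, the 2 parts of centralspindlin, which Aurora B phosphorylates, fell 3.49-fold and 2.43-fold. The citron kinase gene CIT fell 2.16-fold, the chromokinesin gene KIF4A 2.01-fold and the actin scaffold gene ANLN 1.41-fold. ECT2, the RhoA activator of cytokinesis, fell 1.22-fold, a call that ended without the first DMSO library (adjusted p = 0.051 by limma). PRC1, which bundles midzone microtubules, was at 31.8 ± 0.654 FPKM with YM155 and 29.5 ± 1.23 FPKM with DMSO and did not pass (adjusted p = 0.071 by limma), and with upper-quartile, common-sum and quantile scaling it was called lower.

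The other Aurora kinases and their activators fell in all 4 tested cases, under each of the scalings tried. As deposited, 41% of all tested genes were lower. AURKA, the spindle pole paralog of AURKB, was at 13.3 ± 1.26 FPKM with YM155 and 36.9 ± 1.82 FPKM with DMSO, a 2.78-fold fall. BORA, which helps Aurora A activate PLK1, fell 2.50-fold, TPX2, the Aurora A activator of the spindle, 2.07-fold, and the kinase gene PLK1 itself 1.77-fold. AURKC, the germline paralog that can take the place of Aurora B, was under the filter at 0.454 ± 0.0689 FPKM with YM155 and 0.323 ± 0.213 FPKM with DMSO. Transcripts of kinetochore and centromere proteins that Aurora B phosphorylates fell in all 5 tested cases, again under each scaling. Their median log2 fold change was -1.18. The centromeric histone gene CENPA fell 3.31-fold, the microtubule-binding NDC80 3.02-fold, DSN1 of the Mis12 complex 2.46-fold, CASC5 (KNL1) 1.80-fold and the microtubule depolymerase gene KIF2C 1.56-fold. Its paralog KIF2B was listed at 0 in each library.

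Of 11 phosphatase genes that oppose Aurora B, 9 were called higher and 2 lower on the deposited scale (median log2 fold change 0.44), although 5 were higher and 3 lower with upper-quartile scaling. On the deposited scale 43.6% of all tested genes were higher and 41% lower. The catalytic subunit gene PPP1CB rose 1.97-fold and the B56 subunit genes PPP2R5E and PPP2R5A, which target phosphatase 2A to centromeres, rose 2.05-fold and 1.94-fold. CDCA2 (Repo-Man), which brings phosphatase 1 to chromatin, fell 2.12-fold, and PPP1R7 (SDS22) fell 1.61-fold. In ubiquitin-dependent turnover and extraction of the complex, 7 of 10 tested genes were called higher and 1 lower on the deposited scale (median 0.35), against 3 and 3 with upper-quartile and common-sum scaling. KLHL21, a cullin-3 adaptor that moves Aurora B to the midzone, rose 3.32-fold, at 29.6 ± 1.34 FPKM with YM155 and 8.90 ± 0.359 FPKM with DMSO. USP9X, a deubiquitinase known to act on survivin, rose 2.35-fold and NPLOC4 of the p97 adaptor 1.61-fold. UBE2C, the ubiquitin-conjugating enzyme of the anaphase-promoting complex, fell 1.52-fold. The p97 gene VCP did not pass, at 101 ± 3.19 FPKM with YM155 and 96.6 ± 2.65 FPKM with DMSO, and was called lower with upper-quartile, common-sum and quantile scaling. Adaptor genes KLHL13 and FBXL7 were near 0 in both groups.

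Among genes for survivin export and binding, 4 of 6 rose under each of the scalings tried, with a median log2 fold change of 0.69 as deposited. As 43.6% of all tested genes were higher as deposited, this count of few genes does not set the list apart. XPO1, the exportin that carries survivin out of the nucleus, was at 119 ± 11.7 FPKM with YM155 and 49.8 ± 4.15 FPKM with DMSO, a 2.39-fold rise. LAMTOR5 (HBXIP) rose 1.85-fold and the IAP antagonist gene DIABLO 1.74-fold. RAN (216 ± 3.10 FPKM with YM155, 219.7 ± 5.77 with DMSO) and HSP90AA1 (221 ± 1.34 with YM155, 231 ± 2.99 with DMSO) did not pass as deposited, and both were called lower with upper-quartile, common-sum and quantile scaling.

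Of the other genes with a BIR domain, 5 were tested, 3 higher and 1 lower as deposited, with a median log2 fold change of 0.23, which turned to -0.11 with upper-quartile and -0.08 with common-sum scaling (2 higher and 2 lower in both). Beside 43.6% higher and 41% lower of all tested genes as deposited, these counts do not set the list apart. XIAP rose 2.31-fold and BIRC6 2.04-fold, while NAIP fell 2.75-fold. BIRC2 was 1.18-fold higher as deposited, with its sign turned by upper-quartile, common-sum and quantile scaling, and BIRC7 did not pass (2.14 ± 0.437 FPKM with YM155 and 2.73 ± 0.613 FPKM with DMSO), but was called lower with upper-quartile and common-sum scaling and without the third DMSO library.

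**Figure D5:**
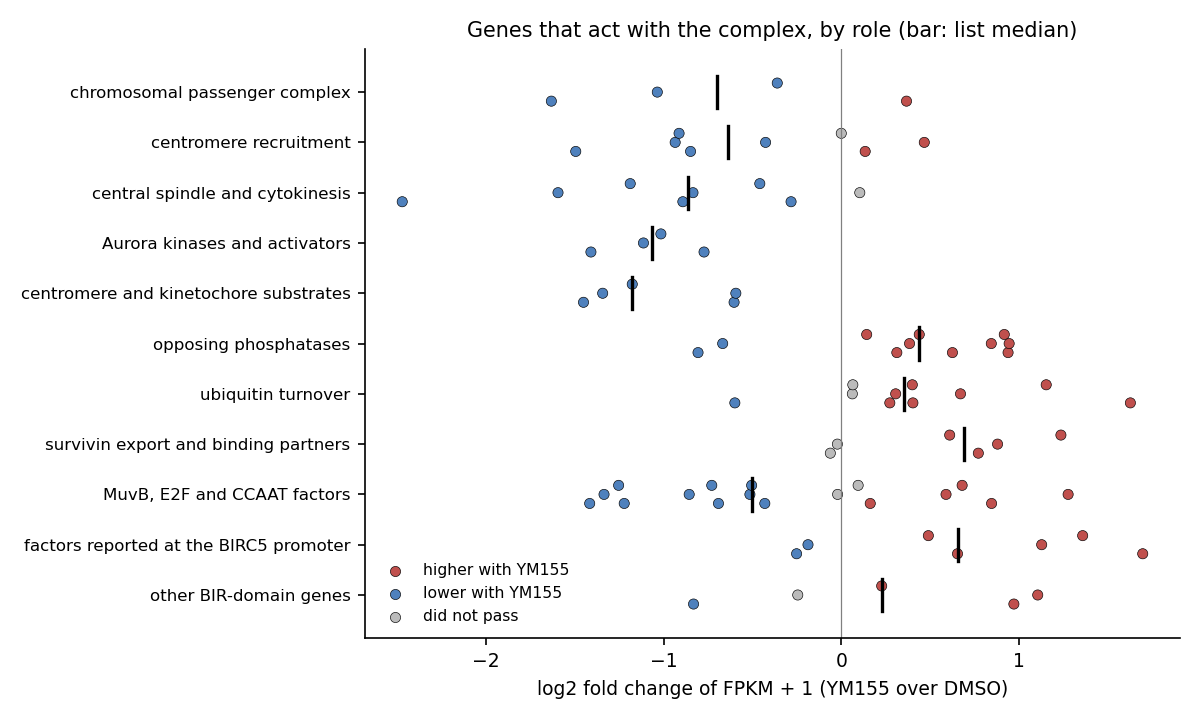
Log2 fold change of FPKM + 1 (YM155 over DMSO) of each tested gene, by role, in red where called higher, blue where called lower and grey where it did not pass, with list medians as black bars. Aurora kinase and kinetochore substrate genes all lie left of 0, as do 7 of 8 central spindle genes, while on this deposited scale most phosphatase, turnover and export genes lie to the right (3 turnover genes called higher and 3 lower with upper-quartile scaling). Among all tested genes 41% were called lower and 43.6% higher as deposited.

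Transcription of the subunits is governed by short promoter elements, and 3 of the 4 had a RefSeq promoter entry (GRCh38.p14), AURKB, INCENP and CDCA8. BIRC5 had no entry, so its promoter is not shown. The windows are given because these partners of one complex, read from the same libraries, changed by unlike amounts. AURKB and INCENP fell, and CDCA8 was called higher as deposited but not with upper-quartile, common-sum or quantile scaling. Whether the promoter letters bear on those changes was not tested. Each window runs from 250 bases before the listed start to 30 bases after it, on the strand of the gene, at chr17:8210220-8210499 on the minus strand for AURKB (the more upstream of 2 listed starts), chr11:62123761-62124040 on the plus strand for INCENP and chr1:37692266-37692545 on the plus strand for CDCA8. The deposited values are on hg19, and these coordinates were not used with them. Capitals mark TTTGAA (the cell cycle genes homology region, bound by MuvB), CCAAT (bound by NF-Y) and GGGCGG (the GC box of SP1-like factors) on either strand.
AURKB: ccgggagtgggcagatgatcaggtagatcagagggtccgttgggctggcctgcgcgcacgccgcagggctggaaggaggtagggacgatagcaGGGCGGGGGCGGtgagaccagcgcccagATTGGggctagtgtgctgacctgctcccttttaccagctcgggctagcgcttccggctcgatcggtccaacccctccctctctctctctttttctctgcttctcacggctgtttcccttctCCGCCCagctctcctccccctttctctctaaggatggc
INCENP: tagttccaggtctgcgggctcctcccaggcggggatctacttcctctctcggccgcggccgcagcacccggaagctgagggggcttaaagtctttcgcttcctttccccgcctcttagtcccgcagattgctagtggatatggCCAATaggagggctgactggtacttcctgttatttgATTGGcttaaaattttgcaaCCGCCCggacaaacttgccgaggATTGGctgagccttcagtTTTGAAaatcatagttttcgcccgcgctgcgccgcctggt
CDCA8: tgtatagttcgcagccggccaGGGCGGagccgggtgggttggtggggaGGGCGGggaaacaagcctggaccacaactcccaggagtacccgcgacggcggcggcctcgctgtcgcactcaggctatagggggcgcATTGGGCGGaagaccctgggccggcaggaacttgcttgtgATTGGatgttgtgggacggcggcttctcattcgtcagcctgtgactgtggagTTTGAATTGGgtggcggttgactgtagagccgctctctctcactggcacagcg
The INCENP window held TTTGAA once, 10 to 5 bases before the start, and CCAAT 3 times, with 1 GGGCGG. The CDCA8 window held TTTGAA once, 23 to 18 bases before the start and sharing 1 base with a CCAAT match, beside 3 CCAAT and 3 GGGCGG matches in all, a pair of which also overlap. The AURKB window held CCAAT once and GGGCGG 3 times, and TTTGAA was not among its letters. That holds for the more upstream start only, as the window of the other listed AURKB start is not shown. For comparison, a gene was counted if the window of any of its listed starts held the letters, which is broader than the single windows above. On that count TTTGAA occurred in 12.7% of the tested genes with an entry, CCAAT in 42.8% and GGGCGG in 76.5%. Among the 35 mitotic genes with an entry 71.4% held TTTGAA and 82.9% CCAAT. A match of letters is a description and not a bound site.

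Of 17 tested MuvB, E2F and CCAAT genes 10 fell and 5 rose as deposited (median log2 fold change -0.51), against 14 and 4 of 18 with upper-quartile scaling, beside 41% lower and 43.6% higher of all tested genes as deposited. RBL2 (p130), the pocket protein of the repressive DREAM complex, was at 8.43 ± 0.770 FPKM with YM155 and 24.1 ± 0.794 FPKM with DMSO, a 2.86-fold fall. The MuvB subunit genes RBBP4 and LIN37 fell 2.67-fold and rose 2.62-fold. The repressor-type E2F gene E2F4 rose 1.62-fold, NFYC of the CCAAT factor rose 1.84-fold, and E2F5 did not pass as deposited (14.95 ± 0.494 FPKM with YM155, 15.2 ± 1.04 with DMSO) but was called lower with upper-quartile, common-sum and quantile scaling. MYBL2 and FOXM1, the activators of late cell cycle genes, fell 1.36-fold and 1.69-fold, and were singled out after their values were seen. Of 7 genes whose products have been reported at the BIRC5 promoter or as regulators of it, 5 rose and 2 fell as deposited (median log2 fold change 0.65), against 4 and 2 with quantile scaling. KLF5 rose 3.26-fold, STAT3 2.67-fold, SP1 2.24-fold and SP3 1.61-fold, and NONO fell 1.19-fold.

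Over the 6 libraries, the tested genes with values most like BIRC5, measured as the root-mean-square difference of log2(FPKM + 1) after centring each gene on its mean, were C1orf131, AKIP1, REEP6, NIPSNAP1 and ACADM, at 0.0290 to 0.0475. None of them is in the mitotic list. The same measure was 0.31 between BIRC5 and AURKB, 0.64 between BIRC5 and INCENP and 1.01 between BIRC5 and CDCA8. With 2 groups of 3 libraries it reflects mostly the size of the change.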

How the data were processed

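Stranded mRNA libraries of 6 HT29 samples (3 YM155, 3 DMSO, by their labels) were used. The authors deposited 1 FPKM value per gene and library. The submitters' processing notes name hg19, Cuffdiff and Cufflinks 2.2.1, with SAMtools 1.2, Bowtie2 2.3.5.1 and TopHat2 2.1.1. Neither settings, annotation, library-size method nor use of strand was found in the sources used here. FPKM holds no counts, so low-value steps of 1978 single-transcript genes gave approximate depths; rescaled low values came within 0.1 of whole reads in 62.8% to 73.4% of cases, too few for a count test.

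Genes with at least 1 FPKM in at least 3 libraries were compared as log2(FPKM + 1) with limma 3.58.1 in R 4.3.3 (trend, two-sided, no block), adjusted over all tested genes. Fold changes on this scale are understated for low genes, and each fold in the text divides mean FPKM values, or for a ratio of subunits mean ratios. Differences between genes were fitted on per-library differences of log2 values. The fits were tested on simulated data, where the fit on differences gave too many small p-values for some genes as the first of the pair. On the approximate reads of single-transcript genes, replicates of a group differed by more than counting error (chi-square per degree of freedom 2.99 to 7.85). These reads are estimates, and some subunits scattered less than their estimated counting error, so this value is uncertain too. Members and gene lists were chosen with earlier results of these data known. In lists of up to 8 genes all may be named, and in longer ones those with the largest called changes, against the majority, or most abundant without a call. Alternatives covered pseudocounts, filters, scalings, variance priors, weights, a replicate block and leaving out each library. The spreads of single pairs were added after seeing the data. Some genes of these lists are counted but not reported here by name.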

Additional observations from a re-analysis of the deposited data

How the results depend on the processing

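The log2 fold changes of the 4 subunits, the 6 differences between them, their changes relative to the mitotic list and the BIRC5 share kept their direction under every alternative run, except that the AURKB change relative to the mitotic list, which did not pass, ranged from -0.08 to 0.07. All kept their side of the threshold except CDCA8, whose log2 fold change lost its call at 0.0385 with upper-quartile scaling, 0.063 with a common sum and 0.13 with quantile normalization (the cause was not tested). BIRC5 lay between -1.71 and -1.59 without single libraries, AURKB between -1.06 and -1.02, INCENP between -0.40 and -0.32 and CDCA8 between 0.32 and 0.39. Genes called lower numbered 4940, and 2922 with a mean FPKM of at least 5, which tests 8575 genes. Calls were 51.5% higher as deposited, against 35.9% with upper-quartile and 36.9% with common-sum scaling.

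With upper-quartile, common-sum and quantile scaling, in that order, the log2 fold change turned to -0.21, -0.19 and -0.31 for RCC2, -0.23, -0.21 and -0.26 for PRC1, -0.28, -0.26 and -0.38 for VCP and -0.11, -0.0843 and -0.10 for BIRC2. Quantile scaling also turned SGOL1 to 0.23 and CDC20 to -0.00518. Same-numbered libraries did not deviate together over all tested genes (correlations -0.07, -0.15 and -0.12). With 3 libraries per group a weak pairing could go unseen, so this neither shows nor excludes one. With a replicate block 5147 genes were higher and 4861 lower, BIRC5 stayed at -1.63 (adjusted p = 3.2e-07 by limma) and none of the results above changed its call. By the read estimates AURKB had the fewest reads, about 120 to 130 per YM155 library. Those estimates are uncertain, as AURKB scattered less than the counting error they imply.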
